A study of Homo sapiens with 26 samples.

Results

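The comparison is between the peak lists deposited for 2 forms of the transcription factor FOXA1, each fused to the HALO tag and expressed in the same human fibroblasts. The members are all 155652 rows of the peak list deposited for FOXA1 and all 71202 rows of the list deposited for FOXA1rraa, together 226854 of the 399566 rows in the 5 full lists of the series. A FOXA1 peak was counted as kept when at least 1 bp of it was covered by a FOXA1rraa row, and as lost when none was. The cells were BJ fibroblasts, an established line of human foreskin fibroblasts. They were fixed with formaldehyde after 48 h of ectopic expression, the chromatin was sheared by sonication, and DNA was recovered with an antibody to the HALO tag. The FOXA1 group expressed FOXA1 and the FOXA1rraa group expressed a variant whose altered residues the labels do not spell out. The 2 groups share the cell line, the tag, the antibody and the expression time. Each group had 2 ChIP libraries with 2 inputs, but each construct was deposited as 1 list, so no difference below has a replicate check. Values in brackets after a share are its 95% Wilson interval, which reflects the number of peaks and nothing else. Neighbouring peaks, and pieces of 1 peak, are not independent. The lists hold no read counts, so depth is unknown, and they hold no expression values against which the fibroblast label could be checked.

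FOXA1 is a forkhead transcription factor and a founding example of a pioneer factor, a protein that can reach its DNA motif in compacted chromatin and help to open it for other factors. Its DNA-binding domain, the winged helix, has a fold related to that of linker histone. One helix of it reads a short AT-rich core in the major groove. FOXA1 is known for roles in the formation of endodermal organs such as the liver, and in steroid hormone response in breast and prostate.

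The FOXA1rraa list was assembled from rows of several origins, and this bears on every result. Of its 71202 rows, 23216 have names that start with HALOIP1, the prefix of the FOXA1 list itself, and each has the coordinates and the score of a FOXA1 row. A further 41253 rows are also rows of the list for FOXA1nhaa, another FOXA1 variant of the series. The remaining 6733 rows carry the name Nonspecific_FOX, and none of them overlapped a FOXA1 peak or a FOXA1nhaa row. Kept FOXA1 peaks therefore fell into 2 classes, those overlapped by another row, all of which are FOXA1nhaa rows, and those matched by an identical row only. No FOXA1 peak belonged to both classes. What the FOXA1rraa libraries held at these peaks beyond the listed rows was not analysed here, and kept or lost below always means the presence or absence of a row. Every row on a FOXA1 peak is a row of the FOXA1 or the FOXA1nhaa list, so whether the list is a peak call on the FOXA1rraa libraries could not be settled. The shares below may therefore not measure binding of FOXA1rraa itself.

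The sequences that follow show what the classes look like at base level. Each is the central 200 bp of a peak on the plus strand of GRCh37 (hg19), written 5′ to 3′, and the capitals mark a forkhead core, TGTTTAC or TATTTAC, or its reverse complement, GTAAACA or GTAAATA. They were taken from the highest-scoring peaks of each class that hold such a core. The score is the value the authors' list gives to each peak. The first pair was kept through a row of other coordinates. The SH2D1B site, chr1:162387874-162388415, is intergenic and lies 6217 bp from the nearest transcription start. It had a score of 1082, and its FOXA1rraa row, chr1:162387898-162388349, scored 321 at 12.3-fold enrichment. The ATXN1 site, chr6:16576401-16577297, lies in an intron of ATXN1 and had a score of 988. Its FOXA1rraa row, chr6:16576437-16577179, scored 213 at 9.24-fold enrichment.
Kept, SH2D1B site, chr1:162388045-162388244, plus strand: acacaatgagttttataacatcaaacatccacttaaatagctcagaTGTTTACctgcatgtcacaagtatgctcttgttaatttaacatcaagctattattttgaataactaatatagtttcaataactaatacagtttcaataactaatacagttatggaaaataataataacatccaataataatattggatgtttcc
Kept, ATXN1 site, chr6:16576749-16576948, plus strand: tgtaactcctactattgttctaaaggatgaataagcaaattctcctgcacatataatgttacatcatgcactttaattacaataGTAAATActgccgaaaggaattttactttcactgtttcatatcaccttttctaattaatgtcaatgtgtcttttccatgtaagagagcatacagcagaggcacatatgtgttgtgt

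The next pair was matched by an identical row only. The chromosome 12 site, chr12:76956967-76957611, lies in an intron of the long noncoding RNA gene ENSG00000257526, had a score of 848 and holds 2 cores. The CAMKMT site, chr2:44855891-44856551, lies in an intron of CAMKMT and had a score of 746.
Identical row, chromosome 12 site, chr12:76957189-76957388, plus strand: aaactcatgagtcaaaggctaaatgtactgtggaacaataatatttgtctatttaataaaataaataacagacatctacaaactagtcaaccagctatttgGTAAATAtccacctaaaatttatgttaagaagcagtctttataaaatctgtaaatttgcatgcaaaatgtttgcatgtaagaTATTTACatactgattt
Identical row, CAMKMT site, chr2:44856121-44856320, plus strand: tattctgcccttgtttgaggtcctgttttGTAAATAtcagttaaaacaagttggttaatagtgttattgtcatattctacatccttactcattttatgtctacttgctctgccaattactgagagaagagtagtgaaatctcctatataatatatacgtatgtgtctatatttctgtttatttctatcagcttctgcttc

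Lost sites of high score could carry the same core. The chromosome 6 site, chr6:112733940-112734682, is intergenic, with a score of 584. The DEFB124 site, chr20:30047266-30047743, is intergenic, 15425 bp from the start of DEFB124, with a score of 570 and 2 cores. It was chosen after its values were seen, since the windows of the 2 higher-scoring lost peaks with a core, in SRP9 with a score of 683 and in GXYLT2 with a score of 615, overlap untranslated regions and are not printed.
Lost, chromosome 6 site, chr6:112734211-112734410, plus strand: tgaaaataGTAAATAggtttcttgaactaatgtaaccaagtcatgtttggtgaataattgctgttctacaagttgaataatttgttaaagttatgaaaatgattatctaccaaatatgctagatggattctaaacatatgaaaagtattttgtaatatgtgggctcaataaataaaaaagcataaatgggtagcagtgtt
Lost, DEFB124 site, chr20:30047405-30047604, plus strand: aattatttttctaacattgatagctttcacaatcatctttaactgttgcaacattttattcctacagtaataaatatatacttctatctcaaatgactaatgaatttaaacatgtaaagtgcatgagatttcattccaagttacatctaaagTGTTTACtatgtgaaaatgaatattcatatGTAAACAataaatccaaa

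The last pair belongs to FOXA1rraa rows that no FOXA1 peak overlapped. The GLB1 site, chr3:33060611-33061043, lies in an intron of GLB1. Its score was 411 and its fold enrichment 12.96. The chromosome 14 site, chr14:74846859-74847436, is intergenic, and its score was 373 and its fold enrichment 12.7. Both are also rows of the FOXA1nhaa list. The words FOXA1rraa only in the labels below therefore mean outside FOXA1 peaks, not particular to FOXA1rraa.
FOXA1rraa only, GLB1 site, chr3:33060727-33060926, plus strand: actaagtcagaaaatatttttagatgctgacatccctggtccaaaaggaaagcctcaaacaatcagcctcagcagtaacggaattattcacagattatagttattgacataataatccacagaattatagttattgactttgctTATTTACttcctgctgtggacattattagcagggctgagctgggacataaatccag
FOXA1rraa only, chromosome 14 site, chr14:74847048-74847247, plus strand: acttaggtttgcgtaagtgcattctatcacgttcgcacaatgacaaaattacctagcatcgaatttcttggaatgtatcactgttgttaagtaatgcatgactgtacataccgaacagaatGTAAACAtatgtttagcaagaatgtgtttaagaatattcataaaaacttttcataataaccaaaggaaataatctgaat

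Fewer than 1 in 2 FOXA1 peaks were kept. With all FOXA1rraa rows, 62072 FOXA1 peaks were overlapped, which is 39.9% of the list (39.6 to 40.1), and 93580 were lost. Without the identical rows, 38856 were overlapped, 25.0% of the list (24.7 to 25.2). These 2 shares, 39.9% and 25.0%, are the background against which each group of sites below is read. In the other direction, 61806 FOXA1rraa rows lay on a FOXA1 peak, 86.8% of all rows, and 80.4% of the 47986 rows left without the identical ones. Most rows of the FOXA1rraa list thus lay on a FOXA1 peak, and most of the FOXA1 list had no FOXA1rraa row. The 86.8% and 80.4% depend on how the list is made up. Every identical row lies on a FOXA1 peak because it is a copy of one, and no Nonspecific_FOX row does. The FOXA1 list covers 54.6 Mb and the FOXA1rraa list 29.8 Mb.

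Where a row of other coordinates overlapped a FOXA1 peak, the overlap was broad. Each such row is also a FOXA1nhaa row, so these values describe FOXA1 peaks against FOXA1nhaa rows. Over 39965 overlapping pairs the median overlap was 312 bp, a median of 78.5% of the FOXA1 peak. The midpoints lay a median of 78 bp apart (quartiles 33 and 162 bp). They lay within 100 bp in 58.9% of pairs and more than 200 bp apart in 18.7%.

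The FOXA1 list holds some peaks in pieces. It has 149186 peak names on 155652 rows, 6102 names stand on several rows, and 2107 rows are shorter than 50 bp. For 2387 names, the pieces fell into different classes. Counted by name, 40.4% of FOXA1 peaks had a kept piece with all rows and 25.3% without the identical rows.

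Kept FOXA1 sites were the stronger and wider ones. The median score was 194 (quartiles 124 and 287) for peaks overlapped by another row, 144 (93 and 217) for those with an identical row only and 103 (70 and 152) for lost peaks. The distributions overlapped, and the highest score among lost peaks, 1027, exceeded the highest among peaks with an identical row only, 983. A kept peak drawn at random had the higher score than a lost peak with a probability of 0.718 (0.715 to 0.721). Median widths followed the same order, at 447.5, 340 and 253 bp.

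From the lowest to the highest score decile, the kept share rose at each step, from 19.5% to 79.6% with all rows and from 9.26% to 62.5% without the identical rows. The share matched by an identical row only moved less, between 10.2% in the lowest decile and 20.3% in the ninth decile. Width gave as steep a gradient. Of FOXA1 peaks 100 to 199 bp wide, 18.3% were kept with all rows and 8.29% without the identical rows, whereas of those of 800 bp and over, 84.8% and 72.7% were kept. Width added to score: within the top score quintile, the kept share with all rows was 31.0% at 100 to 199 bp, 41.8% at 200 to 299 bp, 58.4% at 300 to 399 bp and 74.3% at 400 to 599 bp. Within width classes the probability that the kept peak had the higher score averaged 0.620, against 0.718 for all peaks together. A wider peak also offers more bases for a 1 bp overlap, and the part of that in the gradient was not tested. With peak midpoints within 200 bp as the criterion, the kept share of all FOXA1 peaks was 35.8%.

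**Figure D1:**
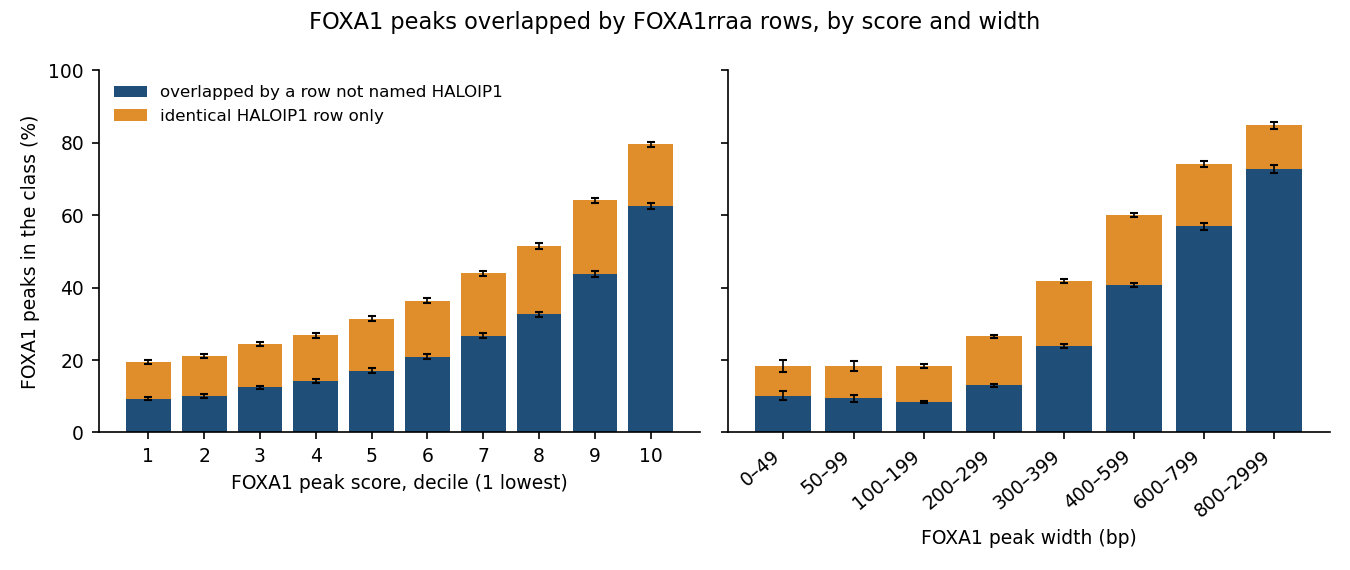
The share of FOXA1 peaks overlapped by a FOXA1rraa row is plotted by score decile (left) and by width (right), as stacked bars for peaks overlapped by a row not named HALOIP1 and peaks with an identical HALOIP1 row only. Error bars are 95% Wilson intervals of the lower bar and of the stack. The whole stack rises from 19.5% to 79.6% over the score deciles and from 18.3% to 84.8% over the widths.

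High-scoring peaks without a core were found in every class. The highest-scoring kept peak, chr3:46948550-46949919 near PTH1R, the receptor for parathyroid hormone, had a score of 1518, and 2 FOXA1rraa rows lay on it. The peak with the highest score among those with an identical row only lies in an intron of STX8, a SNARE protein of endosomes, at chr17:9212935-9213602, with a score of 983. Among lost peaks whose name is in no other class, the highest score, 879, belonged to chr2:32099181-32100370, in an intron shared by MEMO1 and DPY30, a subunit of histone H3 lysine 4 methyltransferase complexes. None of these 3 windows holds TGTTTAC or TATTTAC.

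Forkhead cores were more frequent in kept than in lost sites, and most frequent in the sites matched by an identical row only. TGTTTAC or TATTTAC stood on either strand of the central 200 bp in 19.3% (18.9 to 19.7) of peaks overlapped by another row, in 23.03% (22.5 to 23.6) of those with an identical row only and in 16.6% (16.3 to 16.8) of lost peaks. Of all 200 bp windows of the genome, 7.29% hold a core. The difference between all kept and lost peaks was 4.11 percentage points (3.72 to 4.51). Without the identical rows it was 1.42 points (0.972 to 1.87), with 19.3% of kept and 17.8% of lost peaks. The order of the 3 classes was the same for each core alone. TGTTTAC was in 8.22%, 9.24% and 6.49% of peaks overlapped by another row, with an identical row only and lost, and in 3.11% of genome windows. TATTTAC was in 12.04%, 15.2% and 10.8%, and in 4.37% of genome windows. More than 3 in 4 peaks of each class thus had neither core in the window, and no match says only that these letters were not there.

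The same order was seen at every level of score and of window GC content. In each of the 5 score quintiles the share with a core was highest for the identical-row class and lowest for lost peaks. In the top quintile the shares were 23.4%, 19.8% and 15.9% for identical row only, overlapped by another row and lost. In the bottom quintile they were 22.4%, 19.1% and 16.5%. It also held in each of 3 classes of window GC content. All 3 classes were AT-rich, with a mean GC content of the central 200 bp of 33.2% for peaks overlapped by another row, 32.5% for identical row only and 32.7% for lost peaks, against 40.9% for genome windows. The mean over all kept peaks exceeded that over lost peaks by 0.270 points (0.220 to 0.319), far less than the SD of either. Against genome windows of the same GC content, cores were 1.78 times as frequent in peaks overlapped by another row, 2.05 times in the identical-row class and 1.48 times in lost peaks.

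**Figure D2:**
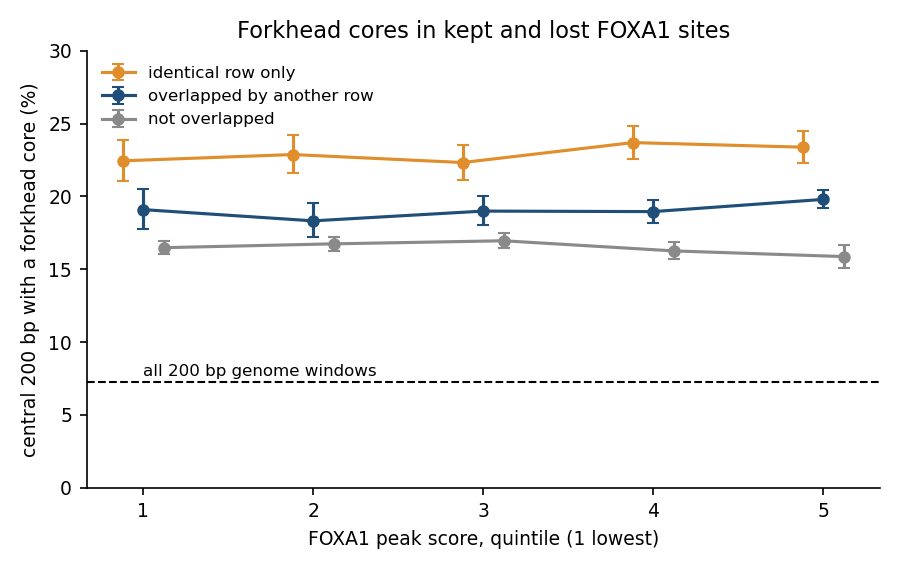
The share of FOXA1 peaks with TGTTTAC or TATTTAC in the central 200 bp is plotted against score quintile for the 3 classes, with 95% Wilson intervals. The dashed line is the share of all 200 bp genome windows, 7.29%. The identical-row class lies above the class overlapped by another row, and lost peaks lie lowest, in every quintile.

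The kept share rose with the number of cores mainly when the identical rows were counted. With all rows, 38.7% of peaks without a core were kept, 44.8% of those with 1, 48.5% of those with 2 and 55.4% (49.5 to 61.1) of those with 3 or more. Without the identical rows the corresponding shares were 24.6%, 26.4%, 26.6% and 26.8% (21.9 to 32.3), where peaks with 1 core still exceeded those with none (25.9 to 27.0 against 24.4 to 24.9) and the intervals for 1, 2 and 3 or more cores overlapped.

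Motifs of fibroblast factors were compared in the same windows, a choice made after the data were seen. The AP-1 site TGAGTCA, bound by FOS and JUN family dimers, was in 9.63% (9.34 to 9.93) of peaks overlapped by another row, 8.43% of those with an identical row only and 7.21% (7.05 to 7.38) of lost peaks, against 3.05% of genome windows. The TEAD site ACATTCC, read by the partners of YAP, was in 5.57%, 4.93% and 4.48%, against 2.88% of genome windows. The RUNX site TGTGGTT was in 5.18%, 5.33% and 5.07%, against 3.84%, and its intervals in the 3 classes overlapped. For AP-1 and TEAD the class overlapped by another row was thus the highest, whereas for forkhead cores the identical-row class was.

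The overlap with other lists of the series also differed between the classes. The FOXA1dbd list, another FOXA1 variant with 28831 rows, overlapped 32.9% (32.4 to 33.4) of peaks overlapped by another row, 21.3% of those with an identical row only and 9.87% (9.68 to 10.1) of lost peaks. The list for HNF4A, a nuclear receptor of liver and other epithelia, overlapped 2.52%, 1.65% and 1.33%. Median score and width fall in the same order over the classes, and these overlaps were not compared within score or width classes. The FOXA1nhaa list overlapped 22980 lost peaks, 24.6% of them. Its overlap with the kept classes, all of the first and none of the identical-row class, follows from how the FOXA1rraa list is made up.

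Kept sites were spread over the same parts of the genome as lost ones, with small shifts towards genes. Of FOXA1 peaks in exons, 46.5% were kept with all rows and 30.5% (29.5 to 31.6) without the identical rows. For peaks up to 1000 bp from a start it was 40.98% and 26.9%, in introns 40.3% and 25.5%, and between genes 36.6% and 21.2%. Intergenic peaks made up 19.6% of kept and 22.5% of lost peaks, a difference of -2.94 percentage points (-3.36 to -2.53). Peaks within 1000 bp of a start made up 9.11% of kept and 8.70% of lost peaks, a difference of 0.407 points (0.118 to 0.697). This difference was 0.895 points (0.565 to 1.23) without the identical rows, whereas with midpoints within 200 bp (0.210, -0.0843 to 0.507) and in the top 50% by score (0.352, -0.0521 to 0.755) its interval includes 0. The median distance to the nearest start was 8914 bp for peaks overlapped by another row, 9877 bp for identical row only and 9821 bp for lost peaks.

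The kept share fell by a few points with distance from transcription starts when the identical rows were left out. With all rows, 40.98% of peaks within 1 kb of a start and 39.2% of those at 100 kb and over were kept. Without the identical rows the share fell from 26.9% (26.1 to 27.6) to 22.8% from the nearest to the farthest class. The difference between peaks at 100 kb or over and those under 10 kb was -1.41 points (-2.82 to 0.00782) with all rows, an interval that includes 0. It was -3.15 points (-4.35 to -1.91) without the identical rows. As a mean of the values within score quintiles it was 0.889 points with all rows, of the opposite sign, and -1.22 points without the identical rows.

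Regional base composition gave a small gradient. In 100 kb windows of under 41% GC, 40.6% of FOXA1 peaks were kept, and in windows of 41% GC or over, 38.3%, a difference of 2.32 points (1.79 to 2.85). Without the identical rows the shares ran from 25.3% in windows under 37% GC and 25.9% in those of 37 to 41% to 20.05% (17.5 to 22.9) in those of 53% and over. The AT-rich windows also held more FOXA1 peaks, with 70.6 per Mb in windows of 37 to 41% GC and 10.95 per Mb in those of 53% and over. Peak width moved with this result. The median width was 308 bp in windows under 41% GC and 285 bp in the others, and within width classes the difference averaged -0.855 points, from 3.59 to -4.51. Among peaks 400 to 599 bp wide, 58.7% (58.1 to 59.4) were kept in AT-rich windows and 63.2% (62.2 to 64.3) in GC-rich windows.

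FOXA1 peaks with many neighbours were kept more often than isolated ones. The number of other FOXA1 peaks within 50 kb on each side was used as the measure of density. Of peaks with 0 to 2 others, 33.3% (32.4 to 34.2) were kept with all rows and 17.9% (17.2 to 18.6) without the identical rows. Of peaks with 20 or more others, 44.6% and 30.4% were. The difference between peaks with 10 or more others and those with 0 to 2 was 9.16 points (8.22 to 10.1). Dense neighbourhoods held higher and wider peaks, with a median width of 317 bp against 257 bp. Within score quintiles the difference averaged 3.95 points, and within width classes 0.802 points. With all rows the dense neighbourhoods were higher in 4 of 7 width classes, such as 19.7% against 16.6% at 100 to 199 bp, and lower in the other 3, such as 42.1% against 44.6% at 300 to 399 bp. With the identical rows left out they were higher in all 7, from 24.6% against 24.2% at 300 to 399 bp to 73.4% (72.1 to 74.7) against 64.4% (55.4 to 72.5) at 800 bp and over.

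**Figure D3:**
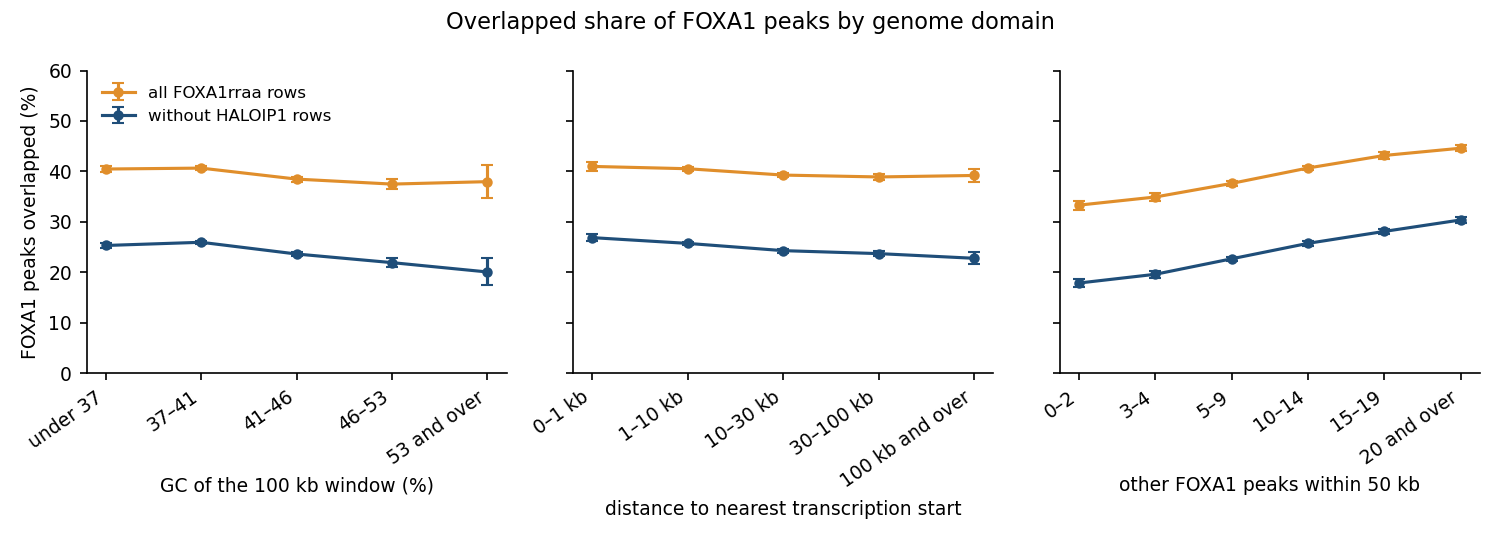
The share of FOXA1 peaks overlapped by a FOXA1rraa row is plotted by the GC content of the 100 kb window, the distance to the nearest transcription start and the number of other FOXA1 peaks within 50 kb, with all rows and without the HALOIP1 rows. Error bars are 95% Wilson intervals. The density panel has the steepest slope, from 33.3% to 44.6% with all rows.

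Chromosomes X and Y had lower kept shares than the autosomes. Of the 183 FOXA1 peaks on Y, 20.8% (15.5 to 27.2) were kept with all rows and 12.6% (8.52 to 18.2) without the identical rows, with a median score of 90, and the second interval overlaps that of chromosome 19. As a mean of the values within score quintiles, the share without the identical rows was 25.7% on Y, from few peaks, and 17.1% on X. X held more peaks. Of its 2222 FOXA1 peaks, 25.9% (24.1 to 27.7) were kept with all rows and 8.87% (7.75 to 10.1) without the identical rows, against 40.1% and 25.2% on chromosomes 1 to 22. Peaks with an identical row only made up 17.0% of the FOXA1 peaks on X and 14.9% of all FOXA1 peaks. The copy number of X and Y in these cells was not considered, and its part in these shares was not tested. X also had fewer FOXA1 peaks, 14.3 per Mb against 53.2 per Mb. They were of lower score, with a median of 90 against 124, and of lower width, with a median of 240 bp against 301 bp. The share of its peaks with a forkhead core, 18.45%, was close to the 18.2% of the autosomes. Within score quintiles, X stayed lower without the identical rows in the lowest 4. In the fourth quintile 18.15% (13.9 to 23.3) of X peaks were kept against 29.8% (29.3 to 30.3) on the autosomes. In the top quintile the shares were 48.1% (37.2 to 59.0) and 53.2%, and the intervals overlapped. With all rows, X was lower in the first quintile, at 13.95% (11.6 to 16.7) against 20.5%. It was also lower in the second, at 19.6% (16.7 to 22.8) against 25.8%. In the third it stood at 31.2% (27.3 to 35.3) against 34.2%. X reached 51.0% (44.9 to 57.0) against 47.8% in the fourth quintile and 71.4% (60.5 to 80.3) against 71.85% in the fifth. At 400 to 599 bp of width, 24.3% (19.5 to 29.9) of X peaks were kept without the identical rows, against 40.9% on the autosomes.

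Among chromosomes 1 to 22 the kept share varied little. With all rows it lay between 36.2% on chromosome 19 and 42.1% on chromosome 13. Without the identical rows chromosome 19 had the lowest share, 17.7%, and the other 21 lay between 22.6% and 26.0%. The ends of chromosomes gave a slightly lower share, with 21.7% (19.4 to 24.2) kept without the identical rows within 1 Mb of an end and 25.05% at 10 Mb and over.

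**Figure D4:**
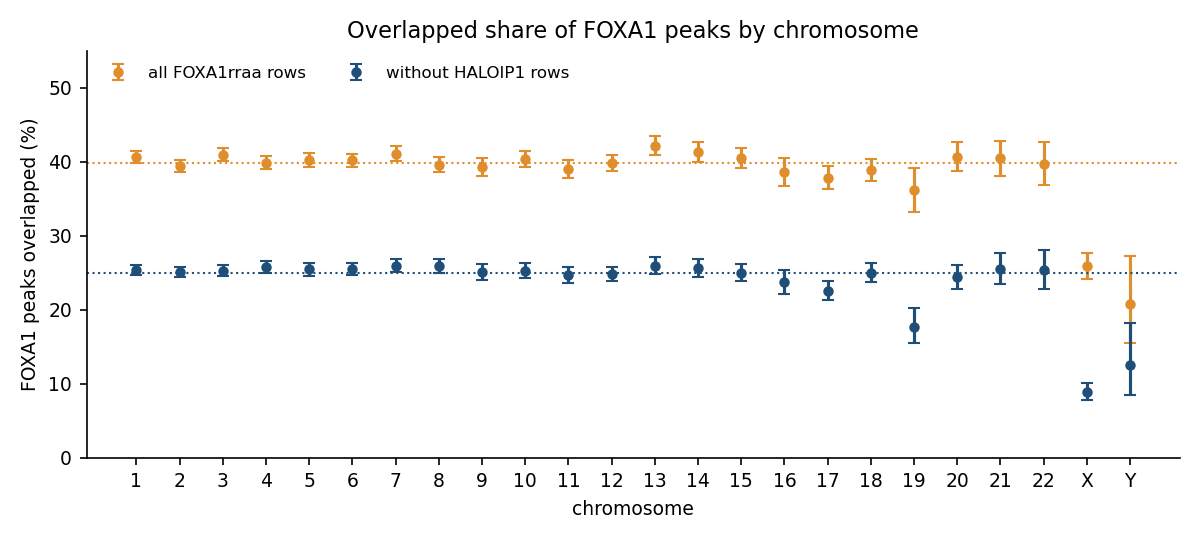
The share of FOXA1 peaks overlapped by a FOXA1rraa row is plotted for chromosomes 1 to 22, X and Y, with all rows and without the HALOIP1 rows. Error bars are 95% Wilson intervals and dotted lines give the share over all of them. X and Y lie below the autosomes, at 25.9% and 20.8% with all rows and at 8.87% and 12.6% without the HALOIP1 rows.

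Single domains rarely departed from the background. Of 2106 windows of 1 Mb with at least 20 FOXA1 peaks, 1890 had an interval that includes the overall share without the identical rows, 103 lay above it and 113 below. The middle 80% of windows lay between 15.1% and 32.3%. Windows were ranked by the lower bound of the interval for the highest and by the upper bound for the lowest, which favours well-filled windows. By this rule the 3 highest were chr10:86000001-87000000 with CCSER2 and the retinal gene RGR (21 of 40 peaks kept), chr10:63000001-64000000 with ARID5B (73 of 178) and chr2:36000001-37000000 with CRIM1 (45 of 108). The 3 lowest by this rule, out of 4 windows that kept no peak without the identical rows and others that kept few, were on X. They are chrX:45000001-46000000 with DIPK2B (0 of 36, up to 9.64%), chrX:117000001-118000000 with WDR44 and DOCK11 (0 of 30, up to 11.35%) and chrX:41000001-42000000 with USP9X, DDX3X and CASK (2 of 54). With all rows these 3 windows kept 6 of 36, 4 of 30 and 6 of 54, and the 3 highest kept 29 of 40, 92 of 178 and 65 of 108. No window then kept less than 9.38%.

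Genes were compared by the FOXA1 peaks in the gene body or within 10 kb of it, counted without the identical rows. Of 20136 protein-coding genes, 13661 had a FOXA1 peak and 1792 had at least 20. Among these 1792, the median kept share was 27.3%, 202 genes had an interval above 25.0%, 38 an interval below it and 1552 an interval that includes it. The 25.0% is the share over all FOXA1 peaks. It includes intergenic peaks, of which 21.2% were kept, and no background of peaks at genes alone was used. All of the 1792 but AMBRA1 and USP9X kept at least 1 peak, and none kept more than 61.9%. With all rows, each of the 1792 kept at least 1 peak.

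The genes with the highest kept share were ranked by the lower bound of the interval. ARID5B, which encodes a DNA-binding protein with an AT-rich interaction domain (chr10:63661443-63856703), kept 42 of 76 peaks, 55.3% (44.1 to 65.9). MEIS1, a homeodomain cofactor of HOX proteins, kept 23 of 44, and MITF, the basic helix-loop-helix factor of the melanocyte lineage, kept 20 of 37. TOP2B, DNA topoisomerase II beta, kept 13 of 21, and SON, a splicing factor of nuclear speckles, kept 12 of 20. The other 5 were PCNX4 with 13 of 21, CCSER2 with 20 of 37, SEC24D, a coat protein of vesicles leaving the endoplasmic reticulum, with 21 of 40, CRIM1, a membrane protein that binds bone morphogenetic proteins, with 31 of 63, and DYNC1I2, an intermediate chain of cytoplasmic dynein, with 14 of 26. The median score of their peaks lay between 130 and 176, above the 124 of all FOXA1 peaks. These 10 were picked for their kept share, so the values describe them and carry no test.

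The genes with the lowest kept share, ranked by the upper bound of the interval, included 4 genes on X and several long genes. USP9X, a deubiquitinase, kept 0 of 26 peaks (up to 12.9%), CASK, a scaffold protein of synapses, 1 of 25, DIAPH2, an actin-nucleating formin, 5 of 62, and the X-linked gene model ENSG00000250349 2 of 50. Identical rows matched a further 3 peaks at USP9X, 2 at CASK, 6 at DIAPH2 and 5 at ENSG00000250349. On the autosomes, CTNNA3, an alpha-catenin, kept 1 of 28, ASTN2, an astrotactin, 2 of 33, ZNF385D 5 of 54, SEMA6D, a semaphorin, 2 of 31, and NEGR1, a neuronal cell adhesion protein, 50 of 320. NEGR1 is in this set for its many peaks, since its share of 15.6% lies near the 10th percentile of the 1792 genes, 15.4%. A further 6 peaks at CTNNA3, 5 at ASTN2, 5 at ZNF385D, 8 at SEMA6D and 43 at NEGR1 had an identical row. With all rows CTNNA3 stood at 25.0% (12.7 to 43.4) and SEMA6D at 32.3% (18.6 to 49.9), intervals that include 39.9%. ASTN2 at 21.2% (10.7 to 37.8), ZNF385D at 18.5% (10.4 to 30.8) and NEGR1 at 29.1% (24.4 to 34.3) stayed below it. AMBRA1, a regulator of autophagy on chromosome 11, kept 0 of 22 (up to 14.9%) although the median score of its peaks was 153, and 6 of the 22 had an identical row. The median score at the other 9 lay between 66 and 121, below that of all FOXA1 peaks. Gene length moved with this. Genes over 1000 kb long kept 22.2% (20.8 to 23.7) of 3177 peaks, against 27.4% (27.0 to 27.8) for genes of 100 to 300 kb.

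Liver genes, the targets FOXA1 is best known for, had kept shares whose intervals include the background. Of 20 liver transcription factor genes, 14 had a FOXA1 peak, 39 in all, and 11 of the 39 (28.2%, 16.5 to 43.8) were kept without the identical rows. HNF4A kept 1 of 3, NR5A2 4 of 14 and PPARA, the fatty acid sensor, 2 of 5, while HHEX lost all 3 and GATA6 its only peak. Of 25 genes for proteins secreted by the liver, 14 had a peak, and 10 of 39 peaks (25.6%, 14.6 to 41.1) were kept. AFP, the fetal serum protein, kept 4 of 9. Its neighbour ALB, serum albumin, kept 0 of 7, with an identical row at 2. FGB, the fibrinogen beta chain, kept 1 of 9, with an identical row at 5. Of 17 endoderm specification genes, 7 had a peak, and 3 of 20 were kept, with KIT, a receptor tyrosine kinase, at 1 of 9.

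Hormone-response genes of breast and prostate lay below the background without the identical rows, with 13 of 90 peaks kept, 14.4% (8.64 to 23.2). With all rows the share was 32.2% (23.5 to 42.4), an interval that includes 39.9%. ESR1, the estrogen receptor gene, kept 4 of 25 without the identical rows, and FKBP5, a cochaperone of steroid receptors, 5 of 19. PGR, the progesterone receptor gene, kept 0 of 5, with an identical row at 1 of the 5. MYB kept 0 of 4, with an identical row at 3 of the 4. The median score over the 90 peaks was 109.

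Genes of the fibroblast itself lay close to the background. Of 24 fibroblast transcription factor genes, 20 had a peak, and 140 of 581 peaks (24.1%, 20.8 to 27.7) were kept. Within this list TWIST1 kept 9 of 20, TWIST2 6 of 10 and OSR2 4 of 4, whereas TCF4 kept 16 of 99, RUNX1 26 of 110 and PRRX1 0 of 7. Identical rows matched a further 23 peaks at TCF4, 19 at RUNX1 and 3 at PRRX1. With all rows these 3 genes stood at 39.4%, 40.9% and 42.9%, near the 39.9% of all FOXA1 peaks. TWIST1, TWIST2 and OSR2 then stood at 60%, 80% and 100%. Matrix and surface genes kept 107 of 370 peaks (28.9%, 24.5 to 33.7), with 21 of 61 at FBN1, the gene of fibrillin 1, 18 of 44 at CALD1, an actin-binding protein, 21 of 83 at COL5A2, a chain of type V collagen, and 3 of 16 at FAP. Genes of AP-1 subunits kept 18 of 53 (34.0%, 22.7 to 47.4). All 4 peaks at JUN had a FOXA1rraa row, 3 of them not identical, and ATF3 kept 3 of 6. TGF-beta pathway genes kept 80 of 289 (27.7%, 22.8 to 33.1), with 13 of 27 at SMURF1 and 12 of 56 at SMURF2, both ubiquitin ligases, and 5 of 14 at the receptor gene TGFBR1. Integrin genes kept 70 of 237 (29.5%, 24.1 to 35.6), with 16 of 44 at ITGB1 and 13 of 37 at ITGA1.

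The neuronal, muscle and olfactory receptor lists lay below the background in both counts. Neuronal adhesion and synapse genes kept 193 of 918 peaks, 21.0% (18.5 to 23.8), with a median score of 110.5. LRP1B kept 15 of 100, NLGN1, a postsynaptic adhesion protein, 12 of 78 and NRXN3, its presynaptic partner family, 5 of 40, whereas GPC6 kept 34 of 130 and CDH13 14 of 47. Muscle genes kept 19 of 123, 15.4% (10.1 to 22.9). MEF2C, a MADS-box factor of muscle and neurons, kept 5 of 44 and PAX3, a paired-box factor of muscle progenitors, 2 of 22, whereas TTN, the gene of titin, kept 5 of 15. MEF2C and PAX3 together hold most of the 123 muscle peaks, and the list without them was not examined. Olfactory receptor genes kept 30 of 181, 16.6% (11.9 to 22.7), and histone genes of chromosome 6 kept 12 of 78, 15.4%, with an upper bound that just reaches the background. With all rows the neuronal, muscle, olfactory receptor and histone lists stood at 36.2%, 27.6%, 31.5% and 28.2%, each with an interval below 39.9%. The histone list, however, stood at 46.2% when only peaks within the gene bodies were counted, and at 26.9% without the identical rows. As means of the values within score quintiles, the 4 shares with all rows were 39.6%, 28.7%, 36.5% and 33.4%, so that the neuronal list then lay at the background. No list had an interval above the background in either count.

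The remaining lists had intervals that include 25.0%. Forkhead genes kept 60 of 246 peaks, with 19 of 68 at FOXP1 and 11 of 29 at FOXJ3, and the only peak at FOXA1 itself had an identical row. HOX genes kept 5 of 22, ribosomal protein genes 20 of 93, keratin genes 5 of 39, clustered protocadherin genes 3 of 21 and zinc-finger genes of chromosome 19 kept 53 of 252.

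**Figure D5:**
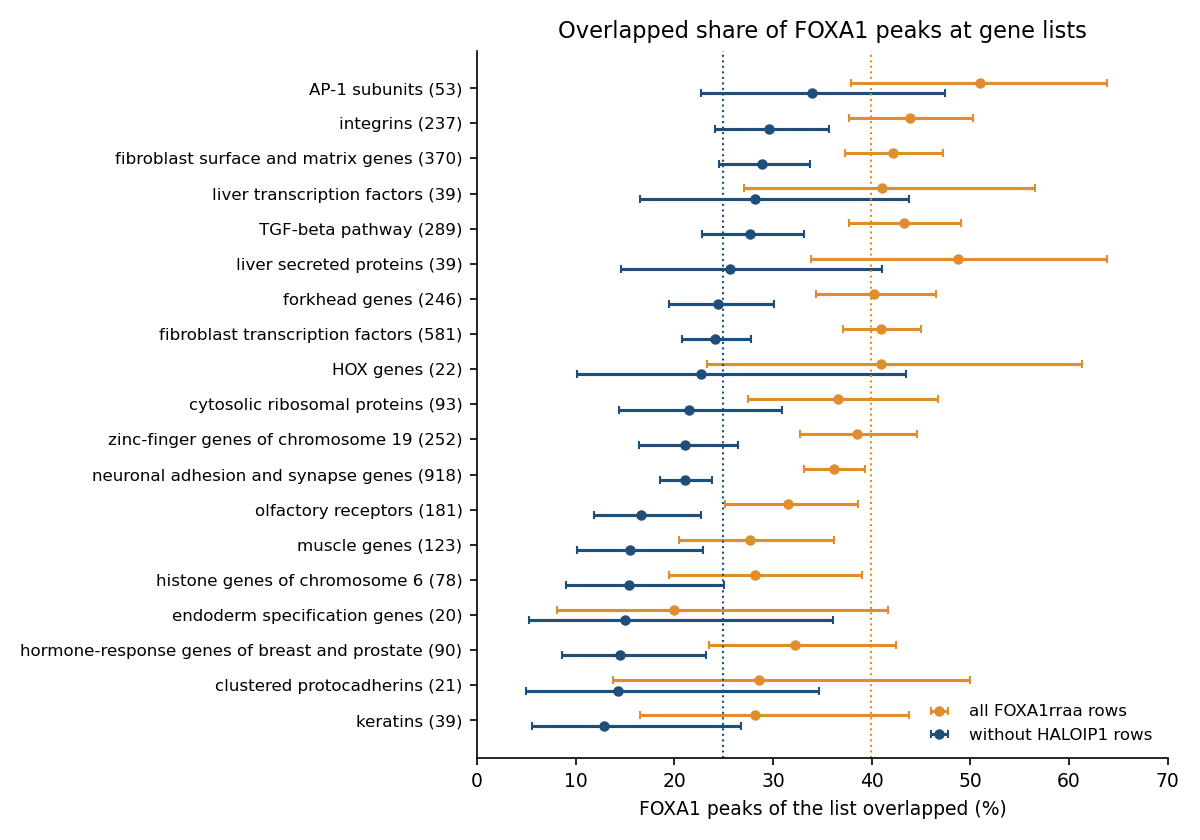
The share of FOXA1 peaks overlapped by a FOXA1rraa row is plotted for 19 gene lists, with the number of FOXA1 peaks of each list in brackets, with all rows and without the HALOIP1 rows. Bars are 95% Wilson intervals and dotted lines are the shares of all FOXA1 peaks, 39.9% and 25.0%. The muscle, olfactory receptor and neuronal lists lie below both lines.

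FOXA1rraa rows outside FOXA1 peaks had a lower median score than the rows that overlap a FOXA1 peak without being identical to it. There were 9396 of 71202, made up of 2663 FOXA1nhaa rows and the 6733 Nonspecific_FOX rows. The median score was 86 with a median fold enrichment of 5.61 for the first kind, and 62 with 3.95 for the second, against 101 and 6.11 for FOXA1rraa rows that overlap a FOXA1 peak without being identical to it. FOXA1nhaa and Nonspecific_FOX rows differ in name and may come from different peak calls, so their scores and fold enrichments may not share a scale. Of the 9396 rows, 75.9% lay within 10 kb of a FOXA1 peak, as does 42.3% of the length of the chromosomes. Introns held 62.5% of them, intergenic sequence 26.8%, regions within 1000 bp of a start 6.36% and exons 4.30%.

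Forkhead cores were most frequent in the Nonspecific_FOX rows, with 26.4% (25.4 to 27.5) holding a core in the central 200 bp, against 19.75% (18.3 to 21.3) of the FOXA1nhaa rows outside FOXA1 peaks and 18.2% of all FOXA1 peaks. Against genome windows of the same GC content this was 2.54 times as frequent, compared with 1.99 and 1.64 times for the other 2. The genes with most rows outside FOXA1 peaks were long ones: MACROD2 with 16, PLCB1, a phospholipase C, with 15, and ARID1B, a subunit of BAF chromatin remodelling complexes, MAGI2, a synaptic scaffold, and RAD51B, a recombination protein, with 13 each. In MACROD2, 14 of the 16 were Nonspecific_FOX rows, and in ARID1B 6 of the 13 were. The kept share of FOXA1 peaks in these 5 genes lay between 22.9% at MACROD2 and 38.0% at ARID1B, counted without the identical rows.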

How the data were processed

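The series measured binding of HALO-tagged factors by ChIP-seq in BJ fibroblasts. Alignment and peak calling were done by the authors, and the submitters' processing notes name Bowtie2 2.3.4.1, Picard, GATK 4.2.6.0, bedtools 2.27.1, MACS2 2.2.7.1, deepTools 3.5.0 and build hg19, without roles or order. The deposited lists give each peak's position and a score, and the FOXA1rraa list also a fold enrichment (a ratio) and −log10 p and q values from the authors. The FOXA1 list has 13 columns, of which only position, name and score were used. Whether libraries were pooled before calling is not given in the sources used here, and peaks have unknown read depth.

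From these, FOXA1 peaks were classed by overlap of 1 bp or more with FOXA1rraa rows, with and without rows whose name starts with HALOIP1. Sequences and GC content were read from GRCh37 and genes from GENCODE 44 on GRCh37. A peak within 1000 bp of any transcription start was assigned there first, then to exon, intron or intergenic sequence. Starts of all annotated transcripts were used. Motifs were searched on both strands of the central 200 bp, and the genome shares are from non-overlapping 200 bp windows. Shares have 95% Wilson intervals, differences of shares Newcombe intervals and the score probability a Hanley-McNeil interval. No test was run, since there is 1 list per construct. Named genes, with at least 20 FOXA1 peaks, are the 10 with the highest lower bound and the 10 with the lowest upper bound of the kept share without HALOIP1 rows, skipping genes that share over 50% of their peaks with a named one. Other genes named from the lists were chosen after their values were seen, beside the 2 members with most peaks. The overlap scripts were tested on simulated peaks. The members and lists were chosen with earlier results of these data known, and AP-1, TEAD and RUNX motifs, width classes, chromosome ends and the split of X by score were added after seeing the data. Python 3.11.15 with numpy 2.4.6, pandas 2.3.3, scipy 1.17.1 and matplotlib 3.10.9 was used.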

Additional observations from a re-analysis of the deposited data

How the results depend on the processing

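Results are given in the order overlapped share of FOXA1, share of FOXA1rraa on FOXA1, score probability, then differences in percentage points. Without the HALOIP1 rows the shares were 25.0% and 80.4% and the probability 0.732. The differences were 1.42 for forkhead cores, 0.574 for GC content, 0.895 for peaks near starts, -4.27 for intergenic peaks and -3.15 for far against near starts, and the range over chromosomes 1 to 22 was 8.24 against 5.98 points. An overlap of 50% of the shorter peak gave 38.8% and 84.7%. Midpoints within 200 bp gave 35.8%, 78.1% and 0.697, with 0.323 for GC content, -1.88 for intergenic peaks, 0.787 for AT-rich windows and 5.645 for density. The top 50% of FOXA1 peaks by score gave 55.1%, 60.7%, 0.680 and a density difference of 7.32. Joining rows of 1 name gave 40.4% and 0.725, and rows of at least 50 bp gave 40.2% and 86.4%.

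Means within score quintiles gave 0.355 for GC content, -2.01 for intergenic peaks, 3.95 for density and 0.889 for far against near starts, the last of the opposite sign. Means within 7 width classes, chosen after seeing the data, gave a score probability of 0.620, and 4.78 for forkhead cores, 0.584 for GC content, -1.82 for intergenic peaks, 0.802 for density and -0.855 for AT-rich windows, the last of the opposite sign. Score quintiles without the HALOIP1 rows, also chosen after seeing the data, gave 1.075 for forkhead cores, 0.730 for GC content, 0.964 near starts, -3.54 for intergenic peaks and 5.75 for density. The central 100 bp gave 1.96 for forkhead cores and 0.396 for GC content, a distance of 2500 bp gave 0.935 near starts, and windows of 1 Mb gave 0.668 for AT-rich windows. The causes were not tested.

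Under the other settings, 52 values stayed within the interval of the reported value. Between 10 and 13 of 19 gene lists lay below the share of all FOXA1 peaks in each setting. No paired analysis was possible because the replicates of a construct share a single list, which also leaves no replicate to drop. The repeat-masked share was not run, since the reference used here does not mark repeats. Intervals cover counting error over peaks, not libraries.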
